A study of Mus musculus with 2 samples.

Results

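Myh9, Actn1, Cald1 and Acta2 are 4 genes of the contractile actin cytoskeleton, and each lies under a broad tract of RNA polymerase II (Pol II) in mouse embryonic fibroblasts. They were chosen by earlier results on the same reads. Their edges lie at or near the ends of runs of windows called over background. The level of each tract is therefore described here and not tested. The members are 4 intervals on the mouse build mm8, out of 42358 regions called over background in both libraries, of which 734 are at least 10 kb wide. Gene names rest on the rule that gave the intervals, since gene models of mm8 were not at hand, and the direction of each gene is RefSeq's.

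Mouse embryonic fibroblasts are connective tissue cells cultured from embryos, grown here in medium with 10% FBS. Pol II was precipitated with 8WG16, a monoclonal antibody to the repeated C-terminal tail of its largest subunit, and the recovered DNA was sequenced. There is 1 group of 2 libraries, with no treatment or genotype given in the labels, and a control precipitation was not analysed here. Amplified fragments were cut from a gel at 150 to 350 bp for library 1 and 150 to 300 bp for library 2, so gel slice and library cannot be told apart. Nothing in the labels says that the libraries come from separate cultures, so their spread may be technical.

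Fibroblasts pull on their surroundings through stress fibres, bundles of actin filaments cross-linked by alpha-actinin and drawn together by non-muscle myosin. Acta2 encodes smooth muscle alpha-actin, the actin that marks myofibroblasts. Myh9 encodes the heavy chain of non-muscle myosin IIA, the motor. Actn1 encodes alpha-actinin-1, a cross-linker of actin filaments at stress fibres and focal adhesions, and Cald1 encodes caldesmon, which binds actin and tropomyosin and restrains the myosin motor. Pol II commonly pauses shortly past the start of a gene, crosses the gene body, and slows again past the site where the transcript is cleaved. In actin cytoskeleton genes, the CArG box, 2 C, 6 A or T and 2 G, is the classical binding motif of serum response factor.

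The sequences just before the starts are shown because the profiles of the 2 libraries differed in shape at the starts. They are the 250 bases before each start that RefSeq lists on GRCm38.p6, read along the gene, and they hold no transcribed base of that start. Capitals mark a TATA box (TATAAA, on either strand) or a CArG box with 1 mismatch in its middle 6 bases. They belong to chr15:77842176-77842425 (Myh9, minus strand), chr12:80260364-80260613 (Actn1, minus), chr6:34598254-34598503 and chr6:34709194-34709443 (the 2 starts of Cald1, plus) and chr19:34255374-34255623 (Acta2, minus). These coordinates cannot be set beside the mm8 ones used for the reads.
Myh9: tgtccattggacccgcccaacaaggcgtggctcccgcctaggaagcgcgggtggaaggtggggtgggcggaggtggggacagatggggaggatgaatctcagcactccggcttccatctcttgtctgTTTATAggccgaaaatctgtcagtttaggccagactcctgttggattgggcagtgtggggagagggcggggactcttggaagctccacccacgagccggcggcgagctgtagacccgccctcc
Actn1: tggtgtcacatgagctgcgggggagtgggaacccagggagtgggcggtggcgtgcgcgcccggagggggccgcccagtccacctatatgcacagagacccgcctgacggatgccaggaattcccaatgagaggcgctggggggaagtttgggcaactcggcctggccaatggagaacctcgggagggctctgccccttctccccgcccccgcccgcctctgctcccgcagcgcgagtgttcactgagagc
Cald1, first start: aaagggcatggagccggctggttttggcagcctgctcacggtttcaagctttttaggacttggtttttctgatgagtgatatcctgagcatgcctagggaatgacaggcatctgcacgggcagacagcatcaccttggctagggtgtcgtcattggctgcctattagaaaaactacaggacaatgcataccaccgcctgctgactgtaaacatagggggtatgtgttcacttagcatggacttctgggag
Cald1, second start: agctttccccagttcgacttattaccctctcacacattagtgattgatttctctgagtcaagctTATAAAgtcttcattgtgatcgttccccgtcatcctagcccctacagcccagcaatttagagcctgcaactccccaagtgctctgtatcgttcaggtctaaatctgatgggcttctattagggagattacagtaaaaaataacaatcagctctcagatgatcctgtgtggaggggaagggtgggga
Acta2: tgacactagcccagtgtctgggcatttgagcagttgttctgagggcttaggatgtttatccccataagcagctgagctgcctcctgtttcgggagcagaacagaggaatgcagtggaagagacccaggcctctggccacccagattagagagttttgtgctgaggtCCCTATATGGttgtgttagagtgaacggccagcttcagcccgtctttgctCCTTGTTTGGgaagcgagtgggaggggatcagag

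None of the 4 genes held a CArG box without a mismatch in these windows, a motif found on either strand in 1.47% of 32851 RefSeq promoters of the same length. Acta2 held 2 boxes with 1 mismatch, CCCTATATGG at 84 to 75 and CCTTGTTTGG at 34 to 25 bases before the start. One or more such boxes, exact ones included, lay in 8.59% of all promoters. TATAAA occurred in the Myh9 window on the reverse strand, 123 to 118 bases before the start, and in that of the second Cald1 start, 186 to 181 bases before it, against 12.4% of all promoters. These are matches of letters, and binding at them was not tested. G and C made up 62.4% of the Myh9 window, 68.4% of that of Actn1, 53.6% of that of Acta2, and 50.4% and 45.6% of those of the first and second Cald1 starts. The median of all promoters was 52.4%.

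After repeated starts were collapsed, library 1 held 17548967 reads and library 2 held 10941174. Library 2 was the more enriched: 53.7% of its reads lay in windows called over background, against 19.1% in library 1. Background was 0.389 RPM per kb in library 1 and 0.236 RPM per kb in library 2, where RPM per kb means reads per 1000000 collapsed reads and per kb of DNA. A window is 500 bp and was called by an exact Poisson test against that background with a Benjamini-Hochberg threshold of 0.01. Levels in RPM per kb were higher in library 2 at all 4 genes, and shapes within a gene are given beside them.

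Acta2 had the highest Pol II level of the 4 genes. Its interval of 17.5 kb (chr19:34305001-34322500, mm8) held 10.9 RPM per kb in library 1 (95% Poisson interval 10.5 to 11.3) and 36.2 RPM per kb in library 2 (35.4 to 37.1), with a mean of 23.6 ± 17.9 (SD, n = 2). That is 28.0 and 153.5 times the background of the library. Only 11 of the 734 broad regions were denser in library 1 and 5 in library 2. In library 2, 19.8% of all possible read starts in the interval were occupied. The level was lower with repeated starts collapsed than with all reads kept, at 12.0 RPM per kb in library 1 and 42.8 in library 2.

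The motor gene Myh9 came next. Over its 88.5 kb (chr15:77582001-77670500) it held 5.10 RPM per kb in library 1 (4.99 to 5.21) and 13.1 RPM per kb in library 2 (12.9 to 13.3), a mean of 9.11 ± 5.67 (SD, n = 2). Only 5 broad regions were longer, and 69 and 32 were denser in library 1 and library 2. Myh9 thus kept a level above the median of broad regions, 2.64 and 4.95 RPM per kb, over a length that few of them reached.

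Actn1 and Cald1 changed places between the libraries. Actn1 (104.5 kb, chr12:81077501-81182000) held 3.67 and 9.38 RPM per kb, a mean of 6.52 ± 4.04 (SD, n = 2). Cald1 (101 kb, chr6:34611001-34712000) held 3.61 and 11.6 RPM per kb, a mean of 7.59 ± 5.64 (SD, n = 2). In library 1 their Poisson intervals overlapped, 3.58 to 3.76 for Actn1 and 3.52 to 3.70 for Cald1. In library 2 Cald1 was denser, at 11.4 to 11.8 against 9.20 to 9.56. The order Acta2, then Myh9, then these 2 genes held in each library. Every step between the means of neighbours in that order was smaller than the larger SD of the pair. These intervals cover counting error only.

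**Figure D1:**
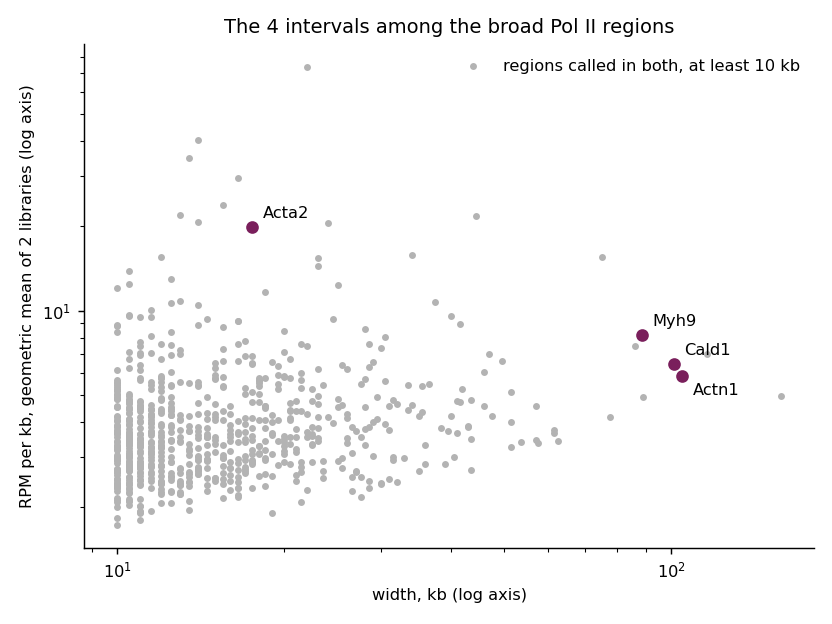
Width in kb (log axis) against the geometric mean of the level in the 2 libraries in RPM per kb (log axis) for the 734 regions of at least 10 kb called in both libraries, in grey, with the 4 intervals in purple. Myh9, Cald1 and Actn1 lie at the right edge among the longest regions, and Acta2 lies among the densest at a width of 17.5 kb.

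Nearly the whole length of each gene was occupied. Windows called in both libraries made up 176 of 177 in Myh9, 204 of 209 in Actn1, 198 of 202 in Cald1 and 33 of 35 in Acta2, against 2.90% of all windows. The rule used these calls, so the counts only describe the members. Along the gene bodies the level was uneven beyond counting noise. The coefficient of variation across 500 bp windows of the Myh9 body was 33.4% in library 1 and 31.5% in library 2, where counting alone gives 15.3% and 11.9%. For Acta2 the values were 36.8% and 29.7%, with 11.1% and 7.45% from counting. The libraries shared much of this unevenness: across body windows Pearson's r was 0.68 for Myh9, 0.67 for Actn1, 0.72 for Cald1 and 0.80 for Acta2. Neighbouring windows share fragments, so these correlations only describe the profiles.

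**Figure D2:**
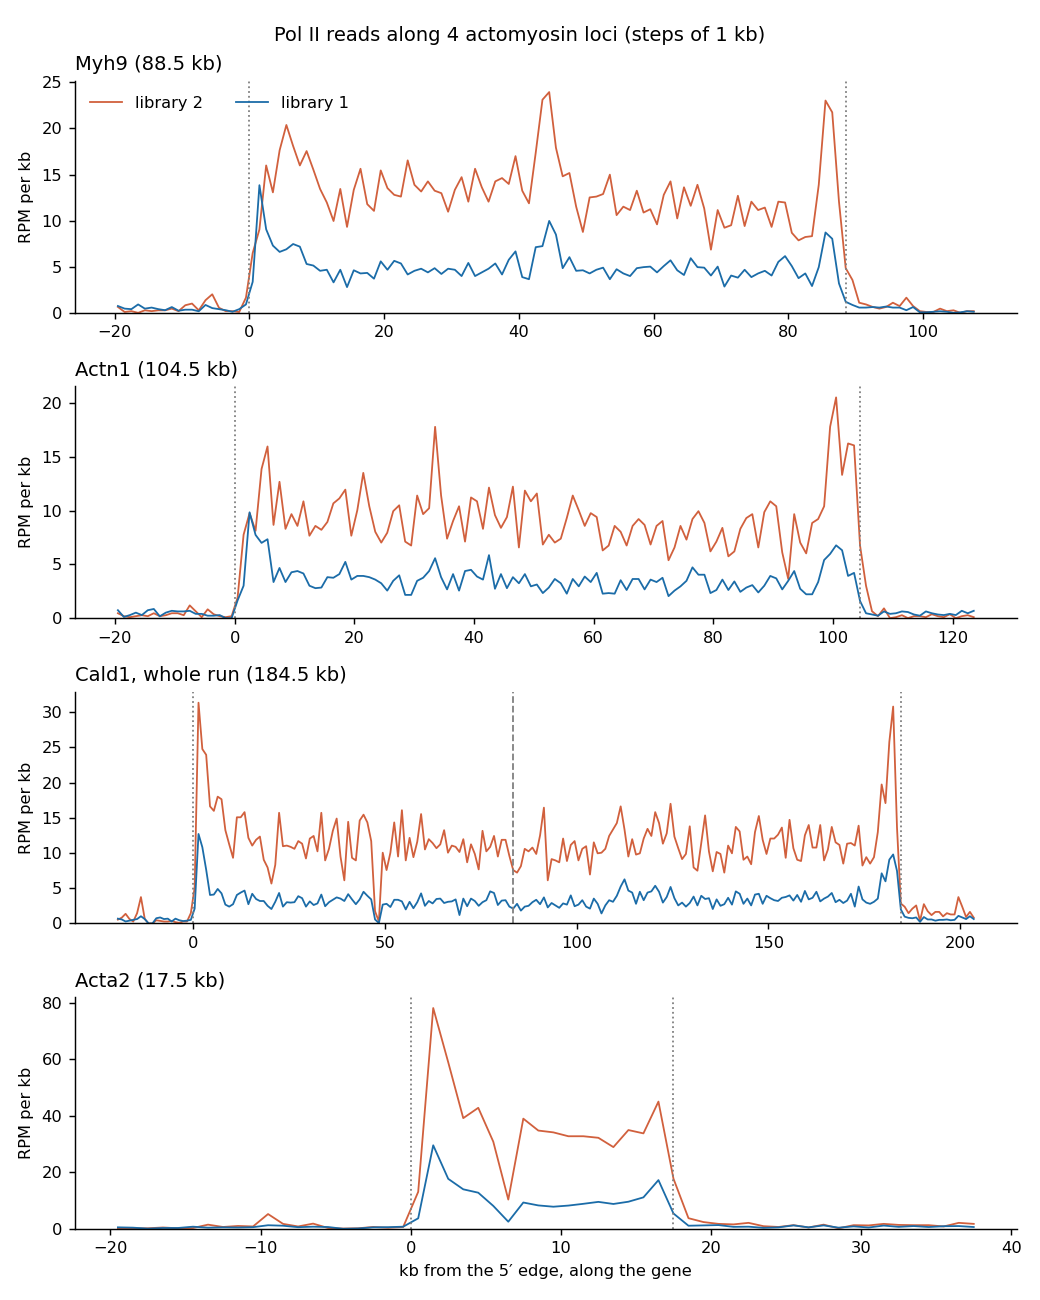
Level in RPM per kb in steps of 1 kb against distance in kb from the 5′ edge along the gene, for library 1 (blue) and library 2 (orange), with dotted lines at both edges of the locus and a dashed line at the 5′ edge that the rule gives for Cald1. All 4 loci show raised ends and a lower level over most of the body in both libraries. Myh9 also has a rise about 44.5 kb inside its edge that reaches the height of its 3′ rise. Library 1 is highest nearer the 5′ edge than library 2 in Myh9 and Actn1.

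The Cald1 interval did not begin at a start. The 20 kb before its 5′ edge held 81.1% of the body level in library 1 and 91.2% in library 2, after background was subtracted. When windows called in both libraries were joined over gaps of at most 4 windows, the tract reached back to chr6:34527501-34712000, a run of 184.5 kb. None of the 734 broad regions, which were joined over at most 1 window, was longer. It began with a sharp peak at chr6:34528501-34529000, at 17.0 RPM per kb in library 1 and 36.6 RPM per kb in library 2. In the 20 kb before the run the level fell to 4.19% and 3.91% of its body. The rule's interval is thus the 3′ stretch of a longer occupied tract, and the run was added after the data were seen.

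RefSeq lists 2 starts for Cald1, 110.9 kb apart on GRCm38.p6. Laid off from the start peak of the run, that distance falls at chr6:34638001-34641000 on mm8, if the gene has about the same length in both builds. These 3 kb held 5.30 RPM per kb in library 1, against 2.71 in the 10 kb before them and 4.21 in the 10 kb after. In library 2 they held 14.5 RPM per kb, against 10.6 before and 12.3 after. Both libraries were thus higher there than in these flanks. Sought within 5 kb of that place, the highest window lay 111 kb from the start peak in library 1 (chr6:34639501-34640000). In library 2 it lay 110 kb from it (chr6:34638501-34639000). Library 2 was as high elsewhere in the run. It held 14.6, 15.45 and 14.35 RPM per kb in the steps of 1 kb centred 43.5, 44.5 and 45.5 kb from the edge of the run. Which transcript the polymerase belonged to was not tested.

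At the start of Acta2 both libraries peaked in the same window, chr19:34320501-34321000, with 29.6 RPM per kb in library 1 and 85.2 RPM per kb in library 2. From there the level dropped sharply outwards, to 1.37 and 8.77 RPM per kb in the 250 bp from chr19:34322001. Averaged over 1.5 kb and with background subtracted, the start stood 2.71 times over the body in library 1 and 2.02 times in library 2, a mean of 2.36 ± 0.49 (SD, n = 2). The start of the Cald1 run stood 2.92 and 1.99 times over its body, a mean of 2.45 ± 0.66 (SD, n = 2). In Acta2 the start was higher than the end peak in both libraries. In the Cald1 run the 1.5 kb at the start held 9.23 RPM per kb in library 1, the same as the end peak, and 22.6 RPM per kb in library 2, below the end peak at 28.8 RPM per kb.

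At Myh9 and Actn1 the libraries placed the highest window near the 5′ edge differently. In Myh9, library 1 peaked at chr15:77669001-77669500, 1 kb inside the edge, with 16.9 RPM per kb, where library 2 had 10.6 RPM per kb. The highest window of library 2 lay 4 kb further into the gene, at chr15:77665001-77665500. It held 22.9 RPM per kb against 8.09 RPM per kb in library 1. Other windows of library 2 came near this level, with 20.3 and 20.8 RPM per kb centred 2.75 and 6.75 kb inside the edge. In Actn1, library 1 peaked at chr12:81179001-81179500 with 10.0 RPM per kb (8.59 in library 2), and library 2 at chr12:81176001-81176500 with 17.7 RPM per kb (6.95 in library 1). Library 1 was thus highest close to the edge in both genes and stayed raised over several kb inwards. It still held 8.09 RPM per kb 5 kb inside the edge of Myh9 and 6.95 RPM per kb 5.5 kb inside that of Actn1. Library 2 was highest further inside in both genes. In Actn1 another window of library 2 came near its highest, with 15.7 RPM per kb centred 7.25 kb inside the edge. The window with the highest mean over the libraries was the one of library 2, and there the start-to-body ratio was 1.51 ± 0.06 (SD, n = 2) for Myh9 and 1.82 ± 0.28 (SD, n = 2) for Actn1. These ratios do not describe the windows where library 1 was highest.

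**Figure D3:**
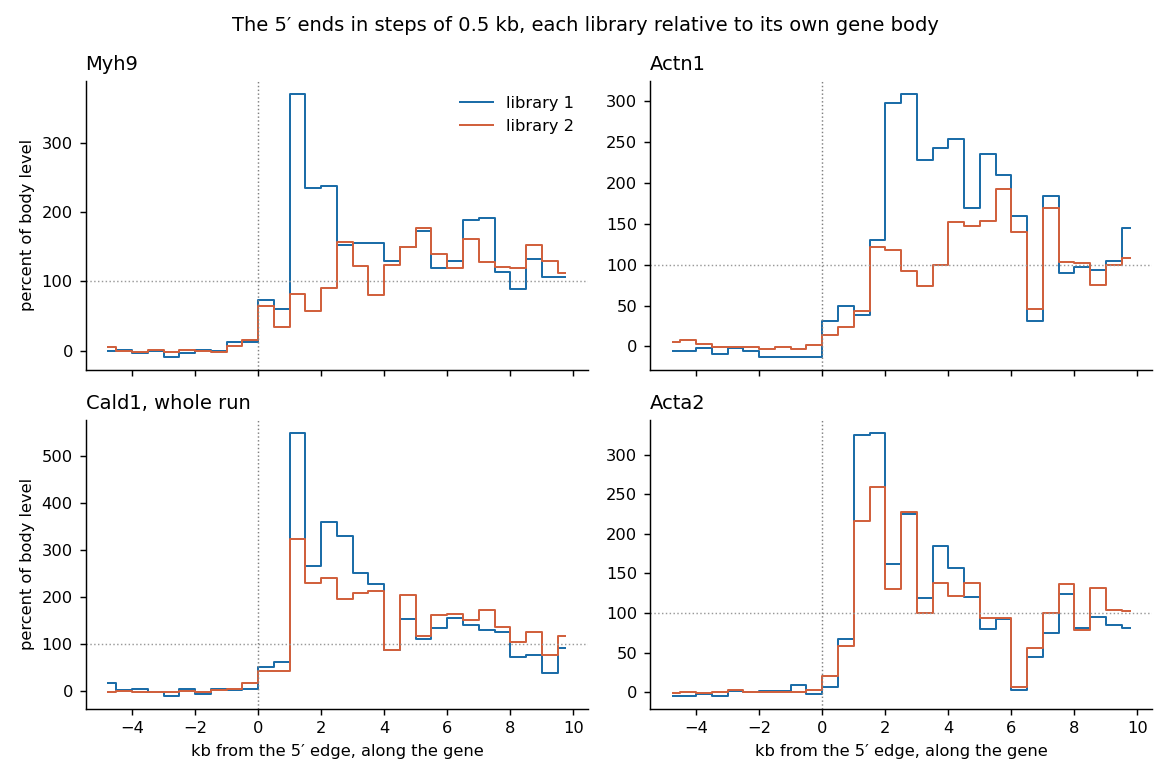
Level in steps of 0.5 kb from 5 kb before to 10 kb past the 5′ edge, as a percent of the mean body level of the same library after subtraction of background, for library 1 (blue) and library 2 (orange). In Myh9 and Actn1 the highest step of library 1 lies 1 and 2.5 kb inside the edge, where library 2 is below its body level, whereas in Acta2 and in the Cald1 run both libraries peak together.

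The share of reads in the first 3 kb was larger in library 1 at all 4 starts. In Myh9 it was 5.82% of the reads of the interval in library 1 and 2.72% in library 2 (Fisher's exact test, two-sided, Benjamini-Hochberg adjusted p = 5.2e-25). In Actn1 it was 3.79% and 1.99% (the same exact test, adjusted p = 1.9e-10). In the Cald1 run it was 3.96% and 2.84% (exact test, adjusted p = 2.0e-06), and in Acta2 26.7% and 23.7% (exact test, adjusted p = 0.0085). The ratio of the shares was largest at Myh9, 2.14, and Actn1, 1.91, and smaller at the Cald1 run, 1.39, and Acta2, 1.13. At the 5′ edge of the rule's Cald1 interval, which is no start, the shares were 2.02% and 2.31% (exact test, adjusted p = 0.44). Over both ends of all 2483 regions of at least 5 kb, 11.2% had a larger share in library 1 and 8.14% in library 2. The test compares these 2 libraries and covers counting error only, and it was added after the data were seen.

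Base composition differed among these starts as well. The windows before the starts of Actn1 and Myh9 are the richest in G and C of the 4 genes, at 68.4% and 62.4%, and the shares differed most there. Within these pairs the order was not the same: Myh9 had the larger ratio of shares, 2.14 against 1.91, with less G and C than Actn1. The first Cald1 start, at 50.4%, had the larger ratio, 1.39, and Acta2, at 53.6%, had 1.13. The part of base composition or of the gel slice in the difference was not tested.

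In the highest 1.5 kb of each locus, the share of reads differed between the libraries in Acta2, at 19.4% in library 1 and 15.7% in library 2 (exact test, adjusted p = 9.1e-05), and in the Cald1 run, at 2.83% and 2.09% (exact test, adjusted p = 0.00032). It did not pass the threshold in Myh9 (exact test, adjusted p = 0.31), Actn1 (adjusted p = 1) or the rule's Cald1 interval (adjusted p = 0.86). In those 3 the highest stretch over both libraries lay 43, 100 and 98 kb from the 5′ edge. Of all regions of at least 5 kb, 21.6% passed.

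Only 3 member windows were higher in library 1, and all lay near a start. They were 2 neighbouring windows of Myh9, chr15:77668501-77669000 and chr15:77669001-77669500, and 1 window of Actn1, chr12:81179001-81179500. With each library scaled to its reads in the windows that both called, these were 2.37, 2.61 and 1.92 times higher in library 1 (exact binomial test, adjusted p = 0.00042, 9.5e-08 and 0.016). Over all 410963 windows tested, 1.77% were higher in library 1.

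In the opposite direction, 231 of the 623 member windows were higher in library 2, against 1.51% of all windows. They were 58 of 177 in Myh9, 38 of 209 in Actn1, 102 of 202 in Cald1 and 33 of 35 in Acta2. The 1.51% covers many windows with few reads, which pass less easily, so the contrast depends in part on read number. When a window had to hold 20 or more reads in sum, 261 member windows were higher in library 2, and 7469 of all 198266 windows left. Towards library 1 these counts were 3 and 5621. The counts also move with the scaling. Scaled to all reads, which shifts every log2 ratio by 0.72 towards library 2, the member windows past the threshold numbered 576 towards library 2 and 1 towards library 1, where 18.5% and 0.489% of all windows passed. Under trimmed-mean scaling, which shifts them by -0.31, the counts were 94 and 6, where 0.608% and 3.82% of all windows passed. Library 2 over library 1, the ratio of levels in RPM per kb was 2.57 in Myh9, 2.56 in Actn1, 3.21 in Cald1 and 3.32 in Acta2. The median over the broad regions was 1.90, and 77, 81, 25 and 22 of the 734 had a larger ratio than these genes. Among the 10 regions denser than Acta2 the median ratio was 2.17, and among the 44 denser than Myh9 it was 2.03.

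The ratio of library 2 to library 1 was also compared along the gene bodies. With the body cut into 3 equal parts, early, middle and late, it was 2.64, 2.68 and 2.66 in Actn1. These averages do not show its last 3 kb, where the share of reads was larger in library 2. In Myh9 it fell from 2.95 (95% interval 2.80 to 3.11) in the early part to 2.46 (2.34 to 2.60) in the late part. The middle part of Myh9 had 2.645. In Acta2 it was 3.72 (3.39 to 4.09) in the early part and 3.07 (2.83 to 3.34) in the late part. The middle part of Acta2 was the highest of its 3 parts, at 3.95 (3.62 to 4.33). In the rule's Cald1 interval the early and late values were 3.29 (3.11 to 3.47) and 2.95 (2.81 to 3.11), where the intervals meet. Its middle part had 3.33 (3.15 to 3.53). The intervals of the early and the late part did not overlap in Myh9 and Acta2.

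The change in level from the early to the late part of the body took different directions among the genes. Background subtracted, the late-to-early ratio of Actn1 was 0.96 in library 1 and 0.97 in library 2. That of Myh9 was 1.04 and 0.86, on either side of 1. The rule's Cald1 interval had 1.25 and 1.1, and Acta2 had 1.41 and 1.15, so the late part was the higher one in both libraries. That interval is only the 3′ stretch of the Cald1 run, which had 1.21 and 1.02 over its whole body. In Acta2 the early part holds a gap, with 0.68 and 2.19 RPM per kb in the window centred 6.25 kb inside the edge. Its late part holds the end peak, at 15.8 and 45.8 RPM per kb. The share of gap and end peak in the ratio of Acta2 was not tested. Between library 1 and library 2, the late-to-early ratio had the same direction in 3 of the 4 genes.

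**Figure D4:**
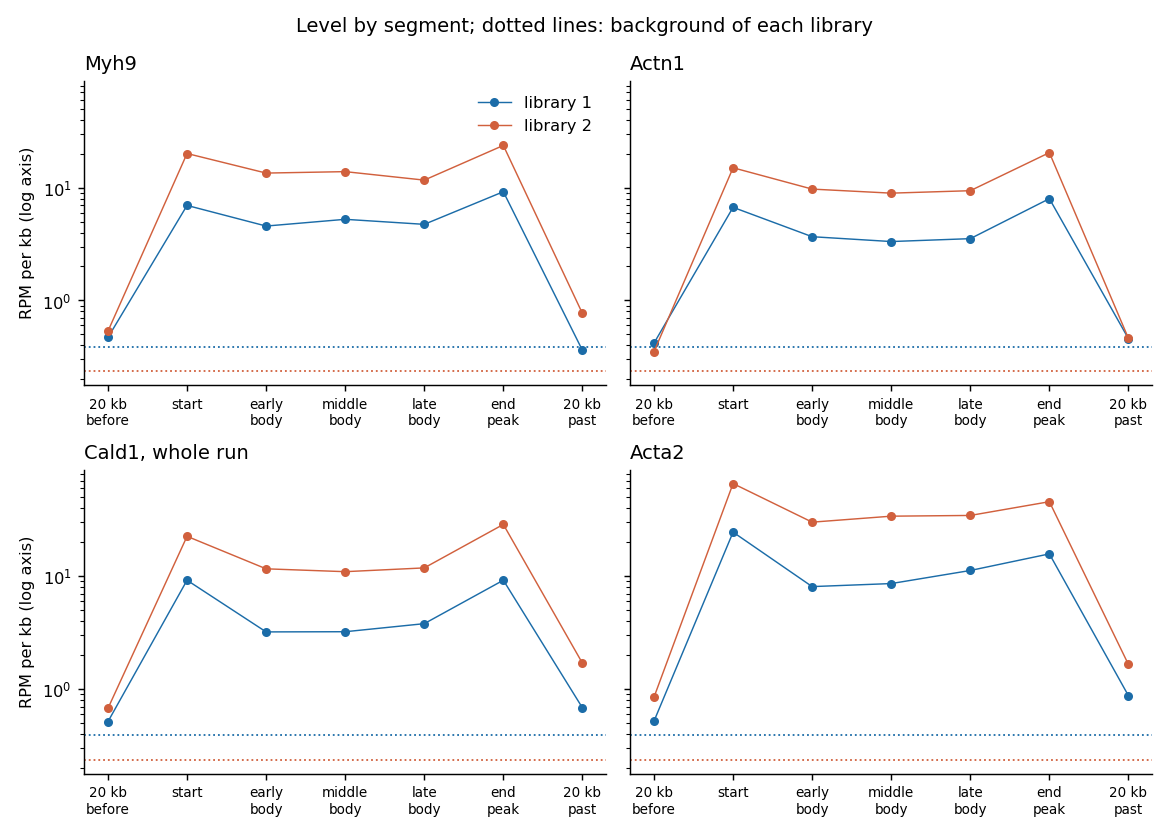
Level in RPM per kb (log axis) by segment along each locus, for library 1 (blue) and library 2 (orange), with the background of each library as a dotted line. Start and end peak are higher than the body in both libraries, and the 20 kb outside each locus hold 0.36 to 0.87 RPM per kb in library 1 and 0.35 to 1.70 RPM per kb in library 2.

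All 4 genes had a second rise close to the 3′ edge, sought as the highest 1.5 kb of the last 10 kb. In Cald1 it lay at chr6:34709001-34710500 with 9.23 RPM per kb in library 1 and 28.8 RPM per kb in library 2. In Actn1 it lay at chr12:81080501-81082000 with 7.98 and 20.4 RPM per kb, and in Myh9 at chr15:77584001-77585500 with 9.19 and 23.6 RPM per kb. Both libraries were used to place these stretches, so their height over the rest of the gene is a description.

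Against the middle part of the body and with background subtracted, this end peak was 2.83 ± 0.27 times as high in Cald1, 2.45 ± 0.19 times in Actn1 and 1.77 ± 0.07 times in Myh9 (SD, n = 2 each). In Acta2 (chr19:34305501-34307000) it was 1.87 times as high in library 1 and 1.35 times in library 2, a mean of 1.61 ± 0.37 (SD, n = 2). The end peak of Cald1 and that of Actn1 differed by less than the sum of their SDs, and so did those of Myh9 and Acta2. Unlike the first 3 kb, the last 3 kb held a larger share of the reads of Actn1 in library 2, 4.11% against 2.72% (exact test, adjusted p = 3.1e-05). In Cald1 the larger share was in library 1, 6.24% against 4.98% (exact test, adjusted p = 0.0036), as in Acta2 with 19.5% against 17.2% (exact test, adjusted p = 0.022). In Myh9 the shares were 3.95% and 4.23% (exact test, adjusted p = 0.60).

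Pol II fell off quickly past the end peaks. In the 5 kb past the edge the level of Acta2 was 1.20 RPM per kb in library 1 and 3.05 RPM per kb in library 2. Cald1 held 0.83 and 2.07 RPM per kb there, Myh9 0.65 and 1.74, and Actn1 0.46 and 1.37. Called windows ran on past the edge for 6 kb in Acta2, 4.5 kb in Cald1, 2 kb in Myh9 and 1.5 kb in Actn1 in library 2, up to the first 2 neighbouring windows not called. In library 1 they ran on for 0.5 kb in Acta2 and stopped at the edge in the other 3 genes. At Myh9, Actn1 and Cald1 the edge ends the windows called in both libraries, so the library with fewer calls stops there by construction. At Acta2 the first window past the edge held 25 reads in library 1 and 49 in library 2. The smallest counts called were 12 and 7, so that window was called in both.

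Relative to its body, Cald1 had the highest level of the 4 genes in the 20 kb past its end in both libraries. These 20 kb held 8.90% of its body level in library 1 and 12.7% in library 2, with background subtracted. In Acta2 it was 5.44% and 4.33%, and in Actn1 2.24% and 2.48%. Myh9 gave -0.61% and 4.17%, a negative value because library 1 lay below its genome-wide background there. In Myh9 the level stepped down about 10 kb past the edge, from 0.59 to 0.14 RPM per kb between the 5 to 10 kb and the 10 to 15 kb stretch in library 1 and from 0.97 to 0.22 RPM per kb in library 2. The 20 kb before the 5′ edges held 1.83% and 2.34% of the body level in Myh9, 0.96% and 1.27% in Actn1, and 1.48% and 1.88% in Acta2. RefSeq places Apol8 past the end of Myh9, Agbl3 past Cald1, Stambpl1 past Acta2 and Gm52006 past Actn1, and reads of such neighbours cannot be told apart from reads running on from these genes.

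Other high windows lay inside the genes. In the middle of Myh9 the window chr15:77626001-77626500, 44 kb from the 5′ edge, reached 11.4 RPM per kb in library 1 and 29.1 RPM per kb in library 2, the highest mean of its body. The rise around it spanned about 4 kb, with 7.12 to 9.97 RPM per kb in steps of 1 kb in library 1 and 17.4 to 24.0 RPM per kb in library 2, against body medians of 4.67 and 12.6 RPM per kb. In the other genes the highest body window lay near the 3′ edge: chr12:81079001-81079500 in Actn1 (6.72 and 27.4 RPM per kb), chr6:34709501-34710000 in Cald1 (9.46 and 34.9 RPM per kb) and chr19:34305501-34306000 in Acta2 (19.4 and 47.7 RPM per kb). Outside its last 10 kb, Actn1 was highest by mean at chr12:81148001-81148500, with 24.7 RPM per kb in library 2 and 6.27 RPM per kb in library 1, which had body windows of up to 10.4 RPM per kb.

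Acta2 had a gap about 6 kb inside its 5′ edge. In the 250 bp from chr19:34316251 its level was 0.23 RPM per kb in library 1 and 0.37 RPM per kb in library 2, beside 6.38 and 25.6 RPM per kb in the 250 bp on the 5′ side. The Cald1 run had one too: the 5 kb at chr6:34574501-34579500 held 1.69 and 5.94 RPM per kb, the lowest such stretch of its body. Most of the loss was narrower, since the step of 1 kb centred 48.5 kb from the edge of the run held 0.06 and 0.27 RPM per kb. Gaps were not limited to these places. In Cald1 the 250 bp from chr6:34620251 held 0 and 0.37 RPM per kb, and those from chr6:34623251 held 0.23 and 0.73. Single stretches of 250 bp were also low in both libraries from chr12:81175001 in Actn1 and from chr15:77656001 in Myh9. The gaps lay at the same places in both libraries. Whether the bases there can hold a read placed at 1 site was not tested, since no genome of mm8 was used here.

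By level and by the ratio of highest to median window, in each library, the broad regions most like each gene were found on other chromosomes. For Myh9 they were chrX:70475001-70503000, with 5.62 and 13.1 RPM per kb, and chr10:23467001-23478000, with 4.57 and 10.6 RPM per kb. Actn1 was most like chr2:143629001-143649500, with 3.99 and 8.34 RPM per kb. The region chr10:117086501-117115000, with 4.32 and 9.12 RPM per kb, was the second for Actn1 and the first for Cald1, which was also near chr17:70886501-70909000. The nearest to Acta2 were chr9:66816501-66850500, with 9.65 and 25.8 RPM per kb, and chr1:164052001-164065000, with 15.9 and 29.96 RPM per kb. Likeness was the Euclidean distance over 4 log2 values, in the 2 libraries. For Myh9, Actn1 and Cald1, these regions were shorter than the genes, at 11 to 28.5 kb.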

How the data were processed

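The deposited files hold signed left-most read offsets, one per alignment, with no scaling: the authors aligned reads of 36 bases to mm8 with Bowtie (options -e 70, -k 2, -m 2, -n 2, -l 36, --best), per the file headers. No source used here gives the Bowtie version. Alignments placed at 1 site were collapsed to 1 per start and strand, 5′ ends shifted by 60 bp, and counted in 500 bp windows. Background came from 3 rounds of removing called windows; called windows at most 1 window apart were joined. The start stretch is the highest window over both libraries from 2 kb outside to 10 kb inside the 5′ edge with its 2 neighbours; the body runs from 2 kb past it to the 3′ edge. An exact binomial test compared the libraries in each window that either called, and regions by Fisher's exact test, with Benjamini-Hochberg adjustment over the whole table and a threshold of 0.05. Scripts were tested on simulated data. Software was NumPy 2.4.6, SciPy 1.17.1, Python 3.11.15 and, for plots, matplotlib 3.10.9. The named stretches are the start window, the highest body window, the lowest 5 kb and the 2 most similar broad regions; gaps and the 3′ decline were chosen after their values were seen. The members and lists were chosen with earlier results of these data known. Other actomyosin genes were not evaluated, since no mm8 annotation was used here, and the cell type was not checked by marker genes.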

Additional observations from a re-analysis of the deposited data

Results flagged for a closer look

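Alignments placed at 2 sites entered none of the comparisons, and all 4 intervals held some, as data outside the main measurement. Library 1 had 57 in Myh9, 79 in Actn1, 51 in Cald1 and 32 in Acta2. Library 2 had 74 in Myh9, 110 in Actn1, 152 in Cald1 and 75 in Acta2. They came to between 0.58% and 1.19% of the reads placed at 1 site. In Cald1 the densest 1 kb, chr6:34656001-34657000, held 12 of them in library 1 and 42 in library 2.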

How the results depend on the processing

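Of 150 alternative values, 128 moved by less than the spread between the libraries or kept their call, and 22 did not. No called difference changed direction, but ratios crossed 1 and uncalled values changed sign. With the start taken as the first 2 kb, the mean start-to-body ratio was 1.22 in Myh9, 0.57 in Actn1, 0.78 in Cald1 and 1.60 in Acta2. With the start window chosen in the other library it was 1.02 in Myh9 and 1.48 in Actn1. The level past the end without subtraction was 6.69% of the body in Myh9, 9.01% in Actn1, 16.5% in Cald1 and 7.20% in Acta2. Over 10 kb it was 6.99%, 4.17% and 5.98% in Myh9, Actn1 and Acta2, and against the last 10 kb 1.81% in Actn1 and 7.83% in Cald1. Member windows higher in library 1 and library 2 numbered 1 and 576 when scaled to all reads (0.489% and 18.5% of all windows), and 6 and 94 by trimmed mean (3.82% and 0.608%). With the highest single window, the log2 ratio of shares was 0.67 in Actn1 (exact test, adjusted p = 0.017) and -0.21 in Acta2 (adjusted p = 0.18), and the uncalled values went from 0.18 to -0.013 in Myh9 and from -0.04 to 0.20 in Cald1. With 1 mismatch allowed, 1 gene held a CArG box. The cause of these changes was not tested. No paired analysis was possible because the 2 libraries form 1 group. Leaving out a library leaves the value of the other, which with 2 libraries lies within 1 SD of the mean by construction. Depth limits library 1 to calls of at least 12 reads per window and library 2 to at least 7.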
